A study of Mus musculus with 6 samples.

Results

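The collagen gene family was examined in mouse embryonic stem cells given opposite Wnt pathway treatments. Its members were all gene symbols of the platform annotation of the form Col, a number, a and a number that had a probe set assigned to a single gene, and there were 44 such genes among 19937 genes measured. By textbook class, 11 encode chains of fibrillar collagens, 6 encode chains of the type IV collagen of basement membranes and 27 encode other collagens. The members were not chosen by their values, although the family was taken up with earlier results of these data known.

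Transcripts were measured on 6 Affymetrix arrays, 3 from cultures treated for 24 h with CHIR99021, which blocks the kinase GSK3 and so raises β-catenin, and 3 from cultures treated for the same time with XAV939, which blocks tankyrase, keeps Axin and so reduces β-catenin. Both treatments used one V6.5 derivative, Ctnnb1-BioFLneo;BirA, whose own β-catenin gene bears a biotin and 3xFLAG tag and which makes the biotin ligase BirA, kept in serum and LIF with feeder cells from DR4 mice. The dose of CHIR99021 was 3 µM, and for XAV939 the sample labels state 3 µM but the treatment protocol 1 µM. No untreated arrays were analysed here, so no difference can be attributed to one compound alone, the results are those of a single line, and the labels do not say whether replicates were separate cultures or whether feeder cells were removed before RNA was extracted.

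Collagens are extracellular proteins whose chains wind into triple helices through repeats of glycine and 2 other residues, many of which are proline or hydroxyproline. Fibrillar collagens assemble into banded fibrils of connective tissue, type IV collagen forms the sheet-like network of basement membranes, and the remaining families decorate fibrils, form filaments or networks, or span the cell membrane. In early embryos type IV collagen is known as a component of the basement membranes laid down by primitive and parietal endoderm and under the epiblast, whereas type I collagen is typical of mesenchymal cells and fibroblasts, the kind of cell used as feeders.

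The arrays were alike, with medians of 5.67 to 5.71 on the log2 scale, correlations across genes of 0.997 to 0.999 within a treatment and 0.994 to 0.995 between treatments. Stem cell markers were high on every array, with Pou5f1, the gene of OCT4, at 11.28, 11.26 and 11.45 with CHIR99021 and 11.58, 11.48 and 11.48 with XAV939, a difference that was not called (-0.19, adjusted p = 0.115 in limma) but was called without CHIR99021 replicate 3 (-0.25, adjusted p = 0.0396, and 0.0336 to 0.366 over the alternatives). Values are log2 levels made by RMA, and they are compared between arrays for a given gene and not between genes, because probe sets differ in brightness. A gene was called where limma's moderated test gave a Benjamini-Hochberg adjusted p under 0.05 over all 19937 genes, and each difference is the mean log2 level with CHIR99021 minus that with XAV939, given with the SE or 95% interval of that fit.

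Of the 44 collagens, 3 were called higher with CHIR99021, Col1a1, Col1a2 and Col5a1, and 1 was called lower, Col18a1. These 4 are 9.09% of the family, against 9.65% of all genes called in either direction (5.31% higher and 4.34% lower), so the share of collagens called was close to that of all genes. The median difference of the family was 0.018, against 0.0066 over all genes. By class, 3 of 11 fibrillar, 0 of 6 basement membrane and 1 of 27 other collagens were called. In total, 6 of 44 collagens had an unadjusted p under 0.05 in limma, where 4100 of all 19937 genes did. They were the 4 called and the basement membrane genes Col4a1 and Col4a2. Differences of the 40 collagens not called lay between -0.078 and 0.19, and their 95% intervals reached from -0.22 at the lowest bound to 0.34 at the highest. In these bulk samples, fewer cells of a type and less RNA per cell cannot be told apart.

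**Figure D1:**
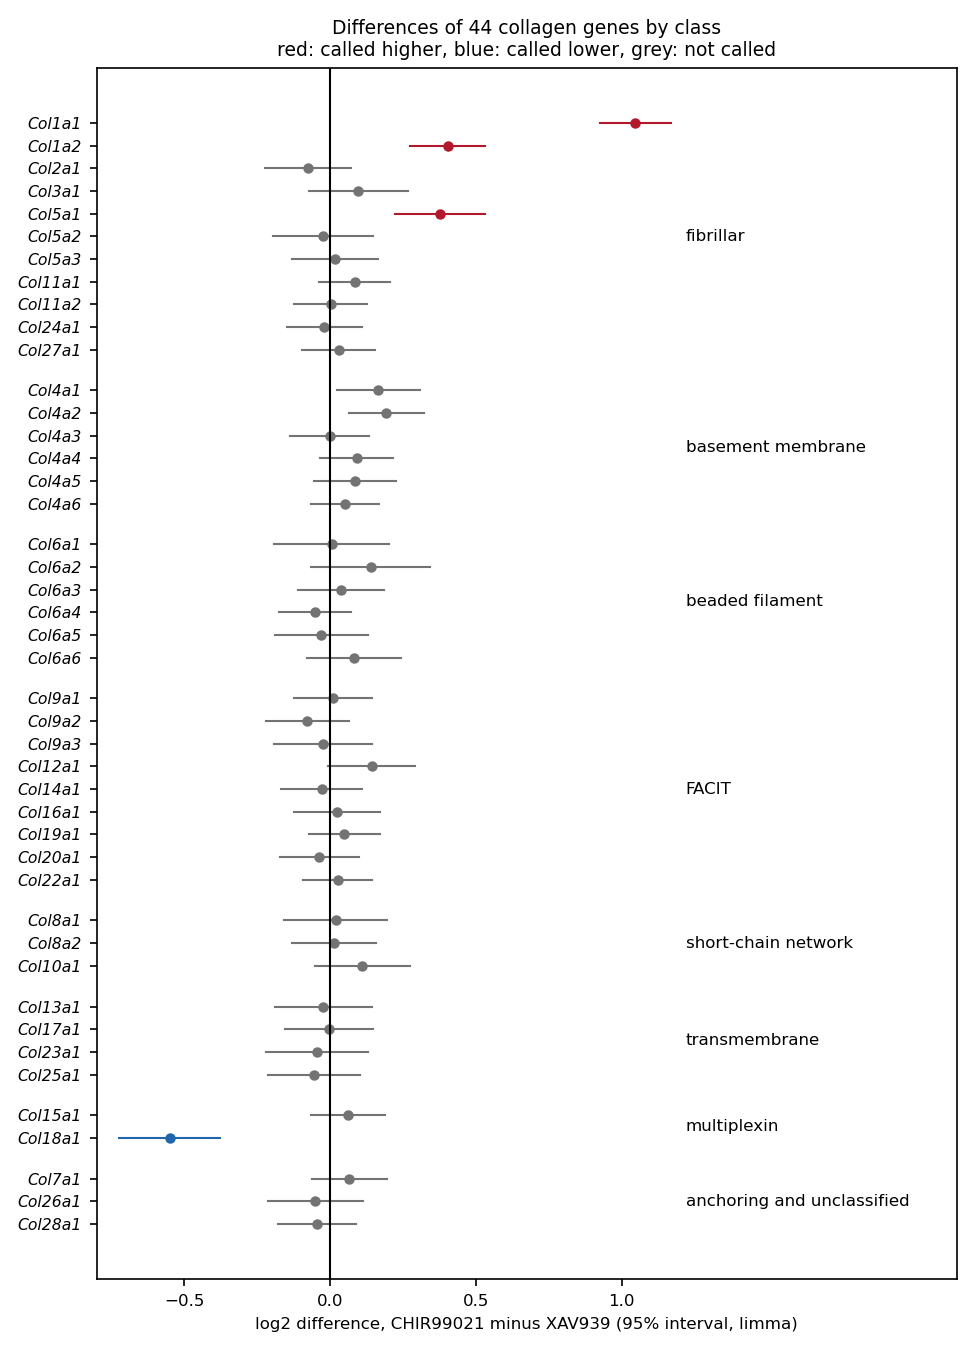
Log2 difference, CHIR99021 minus XAV939, of each of the 44 collagen genes (points) with its 95% interval from limma (lines, 3 arrays per treatment), grouped by class. Col1a1, Col1a2 and Col5a1 lie right of 0, Col18a1 lies left of 0, and the intervals of most other genes span 0.

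Promoter sequences are shown for the called genes that RefSeq's promoter table (build GRCm38.p6) holds, since these are the family members whose transcripts differed. The table held 35 of the 44 collagens in 38 windows, and Col1a1 was not among them. Each run below is the 250 bases before an annotated start, written 5′ to 3′ along the gene's strand, and capitals mark GGGCGG, the GC box, and CCAAT, the CCAAT box, on either strand, motifs that may share bases. The Col1a2 window is chr6:4505368-4505617 on the + strand and that of Col5a1 is chr2:27886175-27886424 on the + strand. Col18a1 has 2 starts in the table, with windows chr10:77166531-77166780 and chr10:77113706-77113955 on the - strand.
Col1a2: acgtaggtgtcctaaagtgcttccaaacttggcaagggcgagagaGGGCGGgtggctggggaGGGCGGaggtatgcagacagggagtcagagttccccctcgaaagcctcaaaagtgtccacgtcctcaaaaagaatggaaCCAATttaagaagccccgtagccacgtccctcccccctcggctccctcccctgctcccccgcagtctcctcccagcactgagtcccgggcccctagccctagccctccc
Col5a1: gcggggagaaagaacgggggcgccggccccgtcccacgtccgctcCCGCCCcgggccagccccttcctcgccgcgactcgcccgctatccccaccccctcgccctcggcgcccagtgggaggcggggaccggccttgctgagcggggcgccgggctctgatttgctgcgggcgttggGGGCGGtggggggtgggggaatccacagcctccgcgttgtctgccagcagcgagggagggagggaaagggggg
Col18a1, window with the higher coordinates: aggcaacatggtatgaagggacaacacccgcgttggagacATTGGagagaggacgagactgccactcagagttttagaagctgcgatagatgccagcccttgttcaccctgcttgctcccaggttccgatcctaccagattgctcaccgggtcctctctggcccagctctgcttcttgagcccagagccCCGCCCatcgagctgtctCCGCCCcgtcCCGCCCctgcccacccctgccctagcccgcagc
Col18a1, window with the lower coordinates: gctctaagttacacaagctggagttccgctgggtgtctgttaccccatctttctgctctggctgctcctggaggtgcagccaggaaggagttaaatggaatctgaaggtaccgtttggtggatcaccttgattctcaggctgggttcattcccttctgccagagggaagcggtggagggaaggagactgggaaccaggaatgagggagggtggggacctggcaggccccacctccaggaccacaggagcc

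The Col1a2 window held 2 GC boxes and 1 CCAAT box, which begins 109 bases before the start, and the Col5a1 window held 2 GC boxes and no CCAAT box. Of the Col18a1 windows, that with the higher coordinates held 3 GC boxes, the nearest beginning 33 bases before the start, and 1 CCAAT box, and the other held neither motif. The TCF/LEF core motif, searched as CTTTGAA or CTTTGAT on both strands, was in none of these 4 windows. It was in 5 of the 38 collagen windows (13.2%), those of Col6a2, Col9a1, Col9a2, Col13a1 and Col15a1, against 7.48% of 32851 windows of the same length. GC boxes were in 57.9% of collagen windows and 32.7% of all windows, and CCAAT boxes in 34.2% and 33.8%. Windows of this size hold only the sequence next to the start, and a match is a description of letters.

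Col1a1 and Col1a2 encode the chains of type I collagen, the main fibrillar collagen of skin, bone and fibroblast cultures, in which the chain from Col1a1 outnumbers that from Col1a2. Col1a1 (probe set 10380419) was at 8.26, 8.29 and 8.34 with CHIR99021 and at 7.30, 7.18 and 7.26 with XAV939. The treatments were far apart and did not overlap, and the gene was 2.07-fold higher with CHIR99021 (difference 1.05, 95% interval 0.93 to 1.17, adjusted p = 1.56e-06 in limma). Col1a2 (probe set 10536220) was at 7.35, 7.45 and 7.35 with CHIR99021 and at 7.04, 6.90 and 7.00 with XAV939. All CHIR99021 arrays were above all XAV939 arrays, by less than for its partner, and the gene was 1.32-fold higher (0.40, 0.27 to 0.53, adjusted p = 0.00126).

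Within each array, the log2 gap of Col1a1 over Col1a2 was 0.90, 0.84 and 0.99 with CHIR99021 and 0.25, 0.28 and 0.26 with XAV939. The gap was wider by 0.64 with CHIR99021, and its values did not overlap between treatments. An exact permutation test over the arrays, two-sided, gave p = 0.1 (adjusted p = 0.15 over the 3 pairs of chains compared), and 0.1 is the smallest p that 3 against 3 arrays allow. The test cannot reach 0.05 at this size and the pairs were chosen after their values were seen, so the gaps are a description.

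Col5a1 encodes a chain of type V collagen, a minor component that is built into type I fibrils and governs their assembly. Col5a1 (probe set 10470462) was at 7.27, 7.21 and 7.37 with CHIR99021 and at 7.03, 6.82 and 6.86 with XAV939. Its groups were separate, with XAV939 replicate 1 nearest to the CHIR99021 arrays, and the gene was 1.30-fold higher with CHIR99021 (0.38, 0.22 to 0.53, adjusted p = 0.00574 in limma). The other type V chains did not pass: Col5a2 differed by -0.024 (-0.19 to 0.15) and Col5a3 by 0.016 (-0.13 to 0.16). The gap of Col5a1 over Col5a2 was wider by 0.40 with CHIR99021, 2.26, 2.27 and 2.37 against 1.85, 1.87 and 1.98 with XAV939, again without overlap (exact permutation p = 0.1, adjusted p = 0.15).

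The remaining fibrillar genes did not pass and lay close to 0. Col3a1, whose product forms fibrils beside type I collagen in skin and vessels, was at 6.44, 6.43 and 6.34 with CHIR99021 and at 6.48, 6.17 and 6.27 with XAV939. Its groups overlapped through XAV939 replicate 1, which was the highest of the 6 arrays, and it differed by 0.096 (-0.073 to 0.27, adjusted p = 0.578). Without that array the difference was 0.18 and still not called (adjusted p = 0.0882, and 0.0533 to 0.917 over the alternatives). The cartilage fibril genes Col2a1, Col11a1 and Col11a2 differed by -0.075, 0.085 and 0.0021, and Col24a1 and Col27a1, chains related to fibrillar collagens, by -0.019 and 0.030. Their intervals together ran from -0.22 to 0.21.

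**Figure D2:**
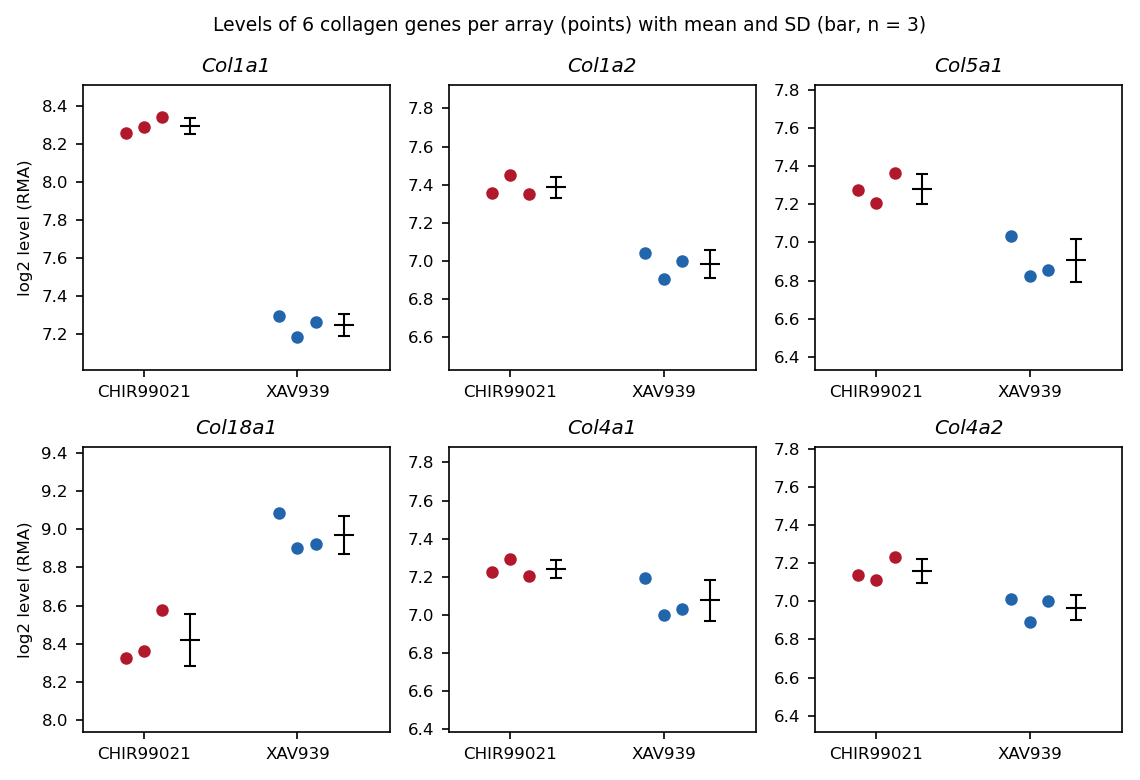
Log2 level (RMA) of 6 collagen genes on each array (points), CHIR99021 at the left and XAV939 at the right of each panel, with mean and SD (bars, n = 3). Col1a1, Col1a2, Col5a1, Col4a1 and Col4a2 have all CHIR99021 points above the XAV939 points, and Col18a1 has them below.

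Type IV collagen genes had small differences, and none of the 6 was called by limma. An unadjusted p under 0.05 was found for 2 of them, and for 4100 of all 19937 genes. Col4a2 (probe set 10570068), which with Col4a1 encodes the type IV collagen found in nearly all basement membranes, was at 7.14, 7.11 and 7.23 with CHIR99021 and at 7.01, 6.89 and 7.00 with XAV939. Its groups did not overlap, and it differed by 0.19 (0.064 to 0.32, adjusted p = 0.0685). Col4a1 (probe set 10576973) was at 7.23, 7.29 and 7.20 with CHIR99021 and at 7.20, 7.00 and 7.03 with XAV939. The lowest CHIR99021 array was just above XAV939 replicate 1, and the difference was 0.17 (0.024 to 0.31, adjusted p = 0.160).

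The result for Col4a1 depended on XAV939 replicate 1. Without it the gene was called, with a difference of 0.23 and adjusted p = 0.0274 (0.0251 to 0.428 over the alternatives), whereas Col4a2 was not called in any of 12 alternatives (0.0532 to 0.232). The within-array gap between Col4a1 and Col4a2 was 0.080 ± 0.106 with CHIR99021 and 0.107 ± 0.079 with XAV939 (SD, n = 3 each), and it overlapped between treatments (exact permutation p = 0.7). The other type IV chains, which make up the basement membranes of kidney glomerulus and other specialised tissues, did not pass. Col4a4 was at 6.07, 5.93 and 5.95 with CHIR99021 and at 5.87, 5.91 and 5.89 with XAV939, a difference of 0.091 without overlap (-0.033 to 0.22). Col4a5 and Col4a6 differed by 0.086 and 0.052 and Col4a3 by -0.0014, all with overlapping groups. With 3 of 6 genes not overlapping, the class stood at 50%, where 25.1% of all genes did not overlap. The share was 27.3% of fibrillar and 7.41% of other collagens, and 8 of 44 (18.2%) over the family. With 6 genes that share the same arrays, no excess for type IV collagen is claimed.

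Col18a1 was the collagen that was lower with CHIR99021. Its product is a proteoglycan of basement membranes, and the fragment endostatin is cut from its end, although by chain structure it belongs to the multiplexins and not to the type IV family. Col18a1 (probe set 10370259) was at 8.32, 8.36 and 8.58 with CHIR99021 and at 9.08, 8.90 and 8.92 with XAV939. All CHIR99021 arrays were below all XAV939 arrays, with CHIR99021 replicate 3 nearest to them, and the level fell by 0.55 (interval -0.72 to -0.38, adjusted p = 0.00109 in limma), or 1.46-fold. The single probe set does not tell the transcripts of the 2 starts apart. Col15a1, the other multiplexin gene, differed by 0.062 (-0.065 to 0.19).

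The remaining 26 collagens of other classes did not pass, where 9.65% of all genes did. None had an unadjusted p under 0.05 in limma, where 4100 of all 19937 genes did. With few genes per class, a count of 0 called is not read as a trait of that class. Differences of the 26 lay between -0.078 and 0.14 with a median of 0.0086, and 23 of them lay within 0.1 of 0 (88.5%, against 67.7% of all genes). The FACIT genes, whose products attach to the surface of fibrils, had 0 of 9 called, with Col12a1 at 5.41, 5.31 and 5.56 with CHIR99021 and 5.30, 5.24 and 5.30 with XAV939. It was the gene of this class with the smallest p, its groups did not overlap, and it differed by 0.14 (-0.0059 to 0.29, adjusted p = 0.268). Beaded filament genes, those of type VI collagen, had 0 of 6 called, from -0.052 to 0.14, with Col6a2 the highest. Of the short-chain genes of hexagonal networks and cartilage growth plates, Col10a1 differed by 0.11 (-0.052 to 0.27). All 4 transmembrane collagens had negative differences, from -0.054 for Col25a1 to -0.0036 for Col17a1, a component of hemidesmosomes, each with an interval that spanned 0. Col7a1, which forms the anchoring fibrils of skin, differed by 0.067.

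More than 1 probe set was present for 2 members. For Col6a5, the probe set with the higher mean differed by -0.030 and the other by -0.31 ± 0.08 (SE, adjusted p = 0.131 over all probe sets), and for Col6a6 they differed by 0.082 and 0.0057. Neither gene was called from either probe set.

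By position, 15 of the 44 collagens stand next to another collagen in the RefSeq order of protein-coding genes, in 8 neighbouring pairs. None of these 15 was called, where 9.65% of all genes were. Nothing about position is drawn from so few genes. Members of a pair had differences of 0.17 and 0.19 (Col4a1 and Col4a2), 0.052 and 0.086 (Col4a6 and Col4a5), and 0.012 and 0.049 (Col9a1 and Col19a1). Others differed by 0.096 and -0.024 (Col3a1 and Col5a2), 0.14 and 0.0055 (Col6a2 and Col6a1), and 0.091 and -0.0014 (Col4a4 and Col4a3). The remaining pairs had 0.082 and -0.030 (Col6a6 and Col6a5), and -0.030 and -0.052 (Col6a5 and Col6a4). The called genes had no collagen as neighbour.

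The family varied among the arrays of a treatment as well as between treatments. Over all 44 genes the mean log2 level was 6.36, 6.34 and 6.33 with CHIR99021 and 6.37, 6.22 and 6.28 with XAV939, and the treatments overlapped because XAV939 replicate 1 was above every other array. XAV939 replicate 1 was the highest of its 3 arrays for 34 collagens (77.3%), against 40.8% of all genes, and XAV939 replicate 2 was the lowest for 27 (61.4%, against 33.7% of all genes). With CHIR99021, replicate 1 was the highest for 21 (47.7%, against 26.1%) and replicate 3 the lowest for 22 (50%, against 27.6%). The genes share these arrays and are not independent, so these shares describe 6 arrays and are not tested. Without XAV939 replicate 1 the family's median difference was 0.063, and without XAV939 replicate 2 it was -0.023, so the sign of the median rested on single arrays. Without both XAV939 replicate 1 and CHIR99021 replicate 3, 6 collagens were called, the additional ones being Col4a1 and Col6a6 (13.6%, against 11.7% of all genes). For the collagens, these were the XAV939 array most often highest and the CHIR99021 array most often lowest. Leaving them out thus moves the family upward by construction (median difference 0.080), and the additional calls are no separate support.

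**Figure D3:**
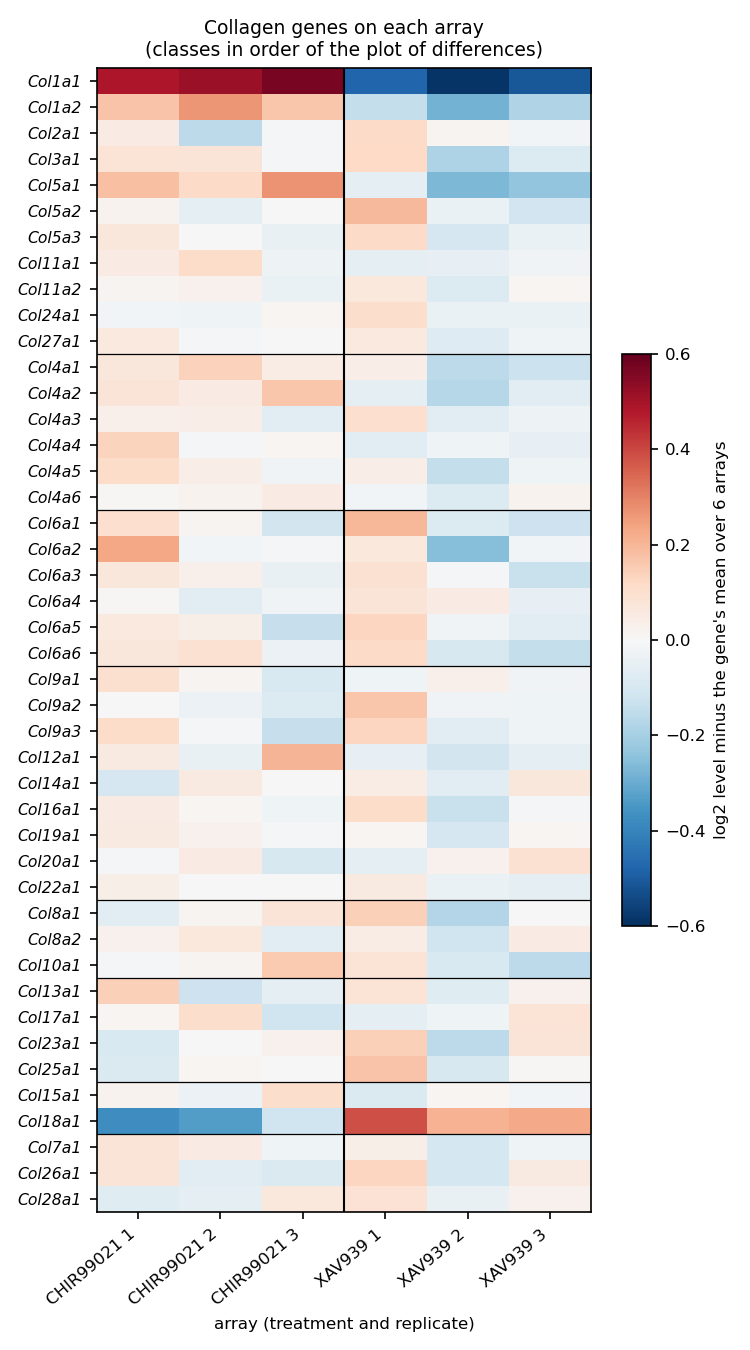
Log2 level of each collagen gene minus its mean over the 6 arrays (colour scale), with the CHIR99021 arrays left of the vertical line and the XAV939 arrays right of it. Col1a1, Col1a2, Col5a1 and Col18a1 change at the line, while most other rows are warmer on XAV939 replicate 1 than on XAV939 replicate 2.

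Genes whose products make, bind or degrade collagen were examined beside the family. Of 54 measured, 9 were higher, 5 were lower and 40 were not called, which is 25.9% called against 9.65% of all genes. Their median difference of 0.017 was close to the 0.0066 of all genes. The lists were drawn up with earlier results of these data known, and nothing particular to them is claimed from these shares.

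Among 18 genes of procollagen modification and folding, 1 was called (5.56%, against 9.65% of all genes). Serpinh1, the collagen chaperone HSP47 of the endoplasmic reticulum, was at 8.16, 8.20 and 8.26 with CHIR99021 and at 7.77, 7.62 and 7.62 with XAV939. The groups were well apart, and the gene rose by 0.54 ± 0.06 (SE, adjusted p = 2.38e-04 in limma). The prolyl and lysyl hydroxylases and the other 17 genes as a whole did not pass, but 8 of the 18, Serpinh1 among them, had all CHIR99021 arrays above all XAV939 arrays (44.4%, where 14.1% of all genes did).

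Export, processing and crosslinking genes had 3 of 16 higher and 2 lower (31.2% called, against 9.65% of all genes). Loxl4, a lysyl oxidase-like enzyme that crosslinks collagen, was at 6.74, 7.01 and 6.96 with CHIR99021 and at 5.79, 5.68 and 5.76 with XAV939. It had the largest difference of the 54 genes, 1.16 ± 0.07 (SE, adjusted p = 5.63e-06). Loxl4 has 2 probe sets, and with their mean its difference was 0.91. Pcolce2, an enhancer of the procollagen C-proteinase, was at 8.70, 8.76 and 8.66 with CHIR99021 and at 7.96, 7.99 and 8.07 with XAV939, a rise of 0.70 ± 0.06. Bmp1, that proteinase, was at 8.15, 8.13 and 8.18 with CHIR99021 and at 7.74, 7.51 and 7.58 with XAV939, a rise of 0.54 ± 0.07. None of these 3 genes overlapped between treatments. Tll1, a protease related to Bmp1, fell by 0.31 and Sec24d, a coat protein of vesicles that carry procollagen from the endoplasmic reticulum, fell by 0.25. Levels of Tll1 were low, with means of 4.88 with CHIR99021 and 5.19 with XAV939, at percentile 30.2 of all genes. Tll1 thus had no value where genes below the median level were left out. The call of Sec24d was lost in 6 of 12 alternatives, among them without CHIR99021 replicate 1 or 2 or any XAV939 array (adjusted p = 0.0105 to 0.150).

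Collagen receptors moved both ways, with 1 of 9 higher and 2 lower (33.3% called, against 9.65% of all genes). Itga1, a collagen-binding integrin subunit, was at 6.40, 6.17 and 6.03 with CHIR99021 and at 5.53, 5.69 and 5.71 with XAV939, a rise of 0.56 ± 0.09 (SE). Ddr1, a receptor tyrosine kinase activated by collagen, was at 7.20, 7.39 and 7.35 with CHIR99021 and at 8.02, 7.77 and 7.90 with XAV939, a fall of 0.58 ± 0.08 (difference -0.58, adjusted p = 6.22e-04 in limma). Neither gene overlapped between treatments. Mrc2, an endocytic collagen receptor, fell by 0.24, a call lost without any 1 of the CHIR99021 arrays, without XAV939 replicate 2 and with the replicate number as a block (adjusted p = 0.0151 to 0.131 over the alternatives). Its level was low, at percentile 35.1 of all genes.

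Of 11 genes of collagen breakdown and its inhibitors, 4 rose and 1 fell (45.5% called, against 9.65% of all genes). The 3 inhibitors of metalloproteinases on the list rose with CHIR99021, Timp2 by 0.70 ± 0.08, Timp3 by 0.67 ± 0.10 and Timp1 by 0.63 ± 0.07 (SE). The gelatinase genes differed in direction. Mmp9 was at 6.53, 6.84 and 6.82 with CHIR99021 and at 6.23, 6.19 and 6.18 with XAV939, a rise of 0.53 ± 0.08, and Mmp2 was at 6.79, 6.84 and 7.06 with CHIR99021 and at 7.33, 7.31 and 7.23 with XAV939 and fell by 0.39.

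**Figure D4:**
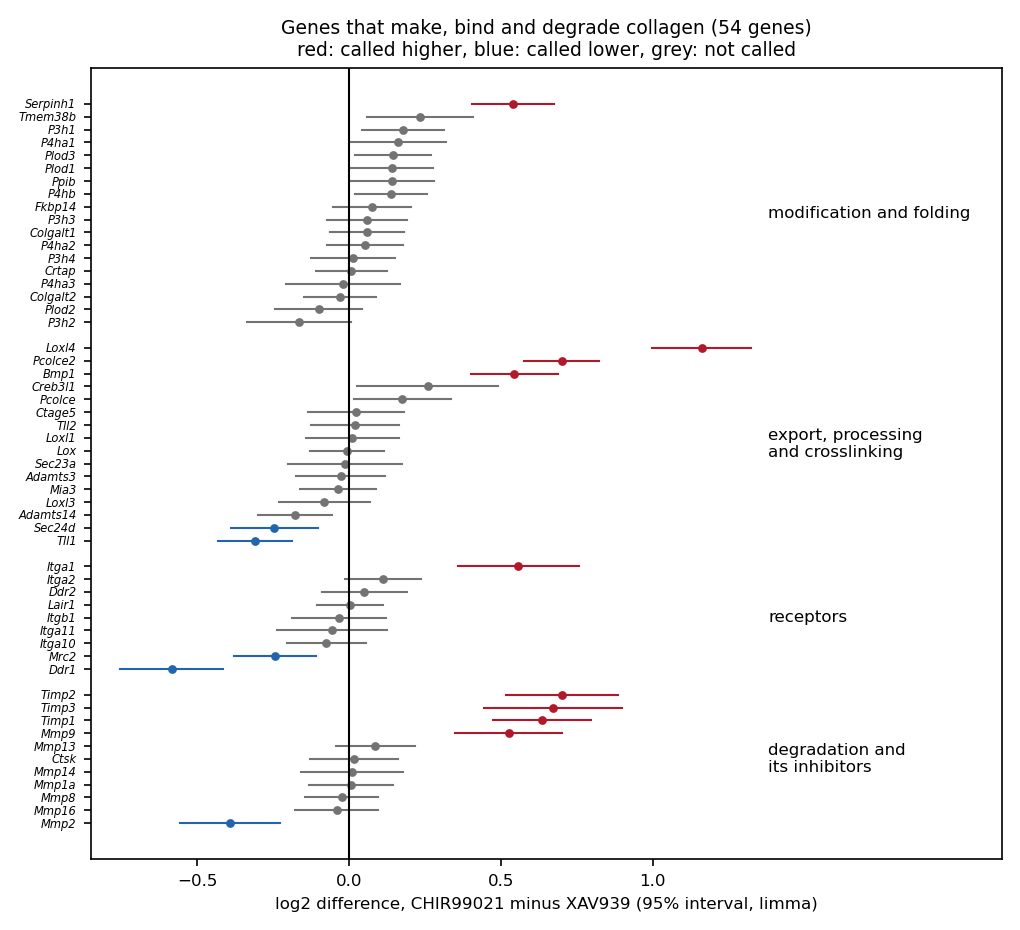
Log2 difference, CHIR99021 minus XAV939, with 95% interval from limma (3 arrays per treatment) for 54 genes that make, bind or degrade collagen, ordered by difference within each list. Loxl4 lies farthest right and Ddr1 farthest left.

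Some markers of feeder fibroblasts were higher in the same arrays as Col1a1, Col1a2 and Col5a1. Of 27 measured markers, none of them a collagen, 10 were higher with CHIR99021, 1 (Mmp2) was lower and 16 were not called, which is 40.7% called against 9.65% of all genes. The mean log2 level of the list was 6.63 to 6.72 with CHIR99021 and 6.37 to 6.42 with XAV939, without overlap. Vim rose by 1.11 ± 0.06, Cd44 by 1.01 ± 0.07, Fn1 by 0.97 ± 0.05, Fstl1 by 0.95 ± 0.06, Tagln by 0.67 ± 0.07 and Pdgfrb by 0.59 ± 0.05 (SE, limma). Bgn, Twist2, Acta2 and Sparc, the other markers called higher, rose by 0.46, 0.36, 0.35 and 0.27. Several of these, such as Vim and Fn1, are not restricted to fibroblasts, and Mmp2, Loxl1 and Sparc stand on other lists as well. Of the 27 markers, 23 had positive and 4 had negative differences. Among the 16 not called, Twist1 differed by -0.19, with all CHIR99021 arrays below all XAV939 arrays, and Thy1 by -0.079. Pdgfra, Prrx1 and S100a4, also not called, differed by 0.12, 0.098 and 0.072. The fibroblast genes Dcn, Lum, Postn and Fap, picked after their values were seen, were not called. Their mean log2 level was 4.19 to 4.25 with CHIR99021 and 4.20 to 4.23 with XAV939. Their levels were low, at percentiles of 7.69 to 15.8 of all genes, and they do not stand for the whole list. No detection call can be made from RMA values, so no marker can be given as absent. The part of feeder cells in the collagen differences was not tested.

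Markers of extraembryonic endoderm, the embryonic source of type IV collagen, had 2 of 16 higher and 1 lower (18.8% called, against 9.65% of all genes). Lama1, a laminin chain, rose by 0.26 ± 0.05, Sparc, a collagen-binding matrix protein, by 0.27 ± 0.06, and Dab2, an endocytic adaptor, fell by 0.35, a call lost in 6 of 11 alternatives, with the replicate number as a block, without the first or second array of either treatment, and with 2 arrays left out (adjusted p = 0.00675 to 0.126). Dab2 has 2 probe sets, and with their mean its difference was -0.22. Its level was low, at percentile 33.9 of all genes. The other 13 markers were not called. Among them, Gata4, Gata6, Sox7, Sox17, Foxa2 and Hnf4a differed by -0.075 (Foxa2) to 0.11 (Gata6). The laminin chains Lamb1 and Lamc1 differed by -0.093 and 0.0089. The mean log2 level of the list overlapped between treatments, at 6.27 to 6.28 with CHIR99021 and 6.21 to 6.31 with XAV939. Of 10 stem cell markers, 3 were higher (Nanog, Esrrb and Zfp42) and 4 lower (Tdgf1, Utf1, Lin28a and Sall4), 70% called against 9.65% of all genes. Nanog, Esrrb, Tdgf1 and Utf1 were called in all 12 alternatives. Zfp42 was called in 8 (adjusted p = 0.0169 to 0.0782), and not without the first or the third CHIR99021 array, without the second XAV939 array or without both XAV939 replicate 1 and CHIR99021 replicate 3. Lin28a was called in 5 (adjusted p = 0.0205 to 0.0842) and lost with the replicate block and without any 1 array other than XAV939 replicate 1. Sall4 was called in 4 (adjusted p = 0.0288 to 0.169) and lost with the block and without any 1 array. Both calls were also lost without both XAV939 replicate 1 and CHIR99021 replicate 3. The mean log2 level of the 10 markers was 10.678 to 10.740 with CHIR99021 and 10.741 to 10.768 with XAV939, ranges that touch but do not overlap. The part of these cell states in the collagen differences was not tested.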

How the data were processed

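The authors deposited log2 expression values per probe set for 6 arrays, made with RMA per the submitters' processing notes; the RMA version is not given in the sources used here. This method corrects background, normalises by quantiles and summarises probes, which tends to compress differences of weakly expressed genes. The labels' protocols state TRIzol extraction with a column clean-up and 300 ng of RNA per array. Scanner files were not used here, so scan dates and detection were not examined, and the number of arrays limits the precision.

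Of 34760 probe sets, 21640 named a single gene, 1321 named several and 11799 had no gene name here. The probe set with the highest mean stood for each of 19937 genes. All 44 collagens matched RefSeq symbols by Entrez identifier. CHIR99021 and XAV939 were compared with limma 3.58.1 (lmFit, eBayes, R 4.3.3) without filtering, at 4 residual and 6.15 prior degrees of freedom, with a threshold of 0.05 after Benjamini-Hochberg adjustment. P-values measure only the spread between these arrays, which may be technical. On simulated data with 19937 genes for this contrast, 72% of planted log2 differences of 0.3, 99.3% of 0.5 and 100% of 1 were called. Over 3 simulations, 150 differences of each size were planted, with independent normal noise and no shift of whole arrays. Far fewer genes thus changed than the 1924 called in the data, which alters the adjusted threshold. These shares check the procedure and are not the share of true differences found in the data. Promoter windows came from RefSeq (GRCm38.p6). Tables and plots were made with Python 3.11.15, pandas 2.3.3 and matplotlib 3.10.9.

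The members and lists were chosen with earlier results of these data known. Named genes were all fibrillar and type IV collagens, other collagens that were called, the smallest p of each remaining class, and up to 6 called genes per further list. Other collagens (Col6a1, Col6a4, Col6a5, Col6a6, Col9a1, Col15a1, Col17a1, Col19a1) were named after their values were seen. So were Pou5f1, Loxl1, Sall4, the fibroblast genes Acta2, Bgn, Twist2, Dcn, Lum, Postn and Fap, and the pairs of chains. The same holds for the fibroblast genes Thy1, Twist1, Pdgfra, Prrx1 and S100a4. It also holds for the endoderm genes Gata4, Gata6, Sox7, Sox17, Foxa2, Hnf4a, Lamb1 and Lamc1. Of 110 genes in the further lists 104 were measured, and Loxl2, among the others, has only a probe set shared with another gene. Alternatives were median centring, a trended robust prior, the mean of all probe sets, leaving out genes below the median level, the replicate number as a block, leaving out arrays, and a threshold of 0.01. Same-numbered arrays did not deviate together from their group means (correlations across genes of -0.096, 0.06 and -0.143), so the numbers were not taken as pairs.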

Additional observations from a re-analysis of the deposited data

How the results depend on the processing

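Calls of Col1a1, Col1a2, Col5a1 and Col18a1 were kept in all 12 alternatives run for single genes. They were also kept at a threshold of 0.01 in the main fit over genes. The fit over all probe sets is not among the 12. There, limma's adjusted p was 2.98e-04 for Col1a1, 0.0146 for Col1a2, 0.0193 for Col18a1 and 0.0459 for Col5a1. All were under 0.05 in that fit, Col5a1 narrowly, but only Col1a1 was under 0.01. Of 33 named genes that were called, 28 kept direction and call wherever they had a value, and 5 (Sec24d, Mrc2, Dab2, Zfp42 and Lin28a) lost the call in some, as did Sall4, which the naming rule did not include. Leaving out 1 array at a time gave 1254 (without CHIR99021 replicate 2) to 2247 called genes, 0 to 1 called basement membrane collagens and a family median between -0.023 and 0.063. A threshold of 0.01 left 1118 genes called. Without both XAV939 replicate 1 and CHIR99021 replicate 3, 5 collagens were called higher, 1 basement membrane collagen and 2 other collagens. That setting leaves out the arrays most often highest and lowest for collagens, so it leans toward calls of higher collagens. Leaving out genes below the median level removed 4 of 6 basement membrane collagens and put their median at 0.18, against 0.089. With the replicate block 1578 genes were called, against 1924, and the same 4 collagens, while Sec24d, Mrc2, Dab2, Lin28a and Sall4 were lost (adjusted p = 0.0508 to 0.0886).

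Differences near 0 changed sign without being called, and the cause was not tested. With 1 array left out, they ranged from -0.038 to 0.035 for Col11a2, -0.044 to 0.029 for Col24a1, -0.115 to 0.017 for Col25a1, -0.0023 to 0.067 for Col27a1, -0.035 to 0.048 for Col4a3, -0.087 to 0.067 for Col5a2 and -0.031 to 0.078 for Col5a3. Median centring gave -0.0090 for Col11a2. Without both XAV939 replicate 1 and CHIR99021 replicate 3 the values were 0.018 for Col24a1, 0.0051 for Col25a1, 0.083 for Col4a3 and 0.060 for Col5a2. With 3 arrays per treatment, simulated differences of 0.3 were called in 72% of cases. Those simulations had fewer changed genes and no shifts of whole arrays, so the share in these data may differ. Of the 44 collagens, 18 lay below the median level of all genes.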
